A study of Mus musculus with 7 samples.

Results

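The 54 genes described here code for surface receptors of macrophages and their close relatives in 7 families: Siglec, Cd300, Ms4a, Slamf, Fcgr, Clec, and Lilr with Pir. They were chosen from the 55417 gene symbols of the count table by the start of the symbol (Siglec, Cd300, Ms4a, Slamf, Fcgr, Clec, Lilr, Pira or Pirb) and by a total of at least 20 counts over the 7 libraries, so the total count chose them and is given as a description. Of 95 symbols with these prefixes, 21 had 0 counts in every library and 20 had fewer than 20 in all. The members comprised 3 of 7 Siglec symbols, 11 of 12 Cd300 symbols, 8 of 21 Ms4a symbols, 3 of 5 Slamf symbols, 5 of 5 Fcgr symbols, 15 of 34 Clec symbols, and 9 of 11 Lilr and Pir symbols. Just inside the limit was Clec1b with 20 counts, and just outside it were Clec1a and Lilra5 with 19 counts each. The families are named by symbol alone, and some carriers of a prefix are not surface receptors: Clec16a is an intracellular protein of mitophagy and autophagy, and Clec11a is a secreted growth factor.

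RNA was sequenced from RAW264.7 cells, a mouse macrophage-like line derived from a virus-induced tumour, that carried 1 of 3 short hairpin RNAs. The groups were hairpin shDpep2.968 against Dpep2 (2 libraries), hairpin shDpep2.759 against the same gene (2 libraries), and the control hairpin labelled shNT (3 libraries). Every group therefore carried a hairpin, and the labels name no other agent, time or clone. Dpep2 codes for a dipeptidase anchored in the membrane. Nothing in the labels says that the replicates came from separate cultures, so p-values measure the spread between these libraries, which may be technical.

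As background, many of these receptors come in pairs that read similar ligands with opposite effects. Inhibitory members such as Siglece, Cd300a, Clec4a2, Clec12a and Pirb carry a tyrosine motif in their tail, the ITIM. It recruits the phosphatases encoded by Ptpn6 and Ptpn11. Activating members such as Fcgr1, Fcgr4, Clec4n, Clec4e, Clec5a and the Pira proteins have short tails or no signalling motif, and act through the adaptors DAP12 (Tyrobp) and FcR gamma chain (Fcer1g), whose own motif, the ITAM, engages the kinase Syk. In macrophages they sense sialic acid, membrane lipids, antibody-coated particles and microbial sugars.

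Library totals ran between 16548648 and 18401060 counts. Counts were scaled to CPM, each gene's share of its library with the library size adjusted by TMM, and 49 of the 54 members were among the 13329 genes with enough counts to be tested. Dpep2 was at 22.4 and 17.9 CPM under shDpep2.968, at 24.9 and 19.5 CPM under shDpep2.759, and at 55.6, 60.3 and 52.1 CPM under shNT. Its log2 fold change was -1.47 for shDpep2.968 and -1.34 for shDpep2.759 (edgeR adjusted p = 0.000477 and 0.000455), and the hairpins differed by -0.14 (edgeR adjusted p = 0.725, shDpep2.968 over shDpep2.759). All 8 macrophage markers were present, at a sum of 14530 to 14560 CPM under shDpep2.968, 16410 to 20010 CPM under shDpep2.759 and 14000 to 15350 CPM under shNT. Lyz2, at 8817 to 14050 CPM, made up most of each sum. Of the 8 markers, 1 had an edgeR adjusted p under 0.05 with shDpep2.759, Adgre1, at a log2 fold change of 0.96 (0.000455). Adgre1 was at 0.17 with shDpep2.968 (0.387), and the hairpins differed by -0.79 (0.0164). Marker sums of T, NK, mast and epithelial cells stayed at or under 0.174 CPM in every library.

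The tests used edgeR's quasi-likelihood test with p-values adjusted by Benjamini and Hochberg over all 13329 genes, and 0.05 as the threshold. With the hairpins averaged against shNT, 16 of 49 members passed, against 7.59% of all genes tested: 14 were higher (3.44% of all genes) and 2 were lower (4.15% of all genes). With shDpep2.968 alone, 8 members passed, against 5.25% of all genes: 7 higher (2.29%) and 1 lower (2.96%). With shDpep2.759 alone, 18 members passed, against 4.73% of all genes: 17 higher (2.72%) and 1 lower (2%). These comparisons share the shNT libraries, so their calls are not independent of one another. Between the hairpins, 4 members were lower with shDpep2.968 than with shDpep2.759, against 0.585% of all genes, and 0 members were higher, against 0.255%. At an unadjusted p under 0.05 edgeR had 1 member higher with shDpep2.968 than with shDpep2.759, while DESeq2 and limma-voom called 0.

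When the 4 Dpep2 hairpin libraries were fitted as 1 group against shNT, 8 members passed in place of 16. The share of all genes was 4.05% in place of 7.59%. The calls of Siglece, Ms4a6c, Slamf7 and Fcgr1 were lost (edgeR adjusted p = 0.0709, 0.0636, 0.277 and 0.0529), as were those of Fcgr4, Clec4n, Clec4a1 and Clec4a3 (0.0585, 0.125, 0.0605 and 0.135).

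Counted by libraries alone, all 4 Dpep2 hairpin libraries lay on one side of all shNT libraries for 19 of 49 members, against 18.5% of all genes: 15 above (9.03% of all genes) and 4 below (9.51%). For shDpep2.968 the groups did not overlap in 27 members, against 43.4% of all genes: 16 above (20.7%) and 11 below (22.7%). For shDpep2.759 they did not overlap in 28 members, against 36.3% of all genes: 24 above (18.2%) and 4 below (18%). Between the hairpins 29 members did not overlap, against 42.9% of all genes: 4 were higher with shDpep2.968 (20.4%) and 25 were lower (22.5%). With groups of 2 libraries such separation is common over all genes.

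The median log2 fold change of the tested members was 0.24 averaged, 0.23 with shDpep2.968 and 0.44 with shDpep2.759, where the medians over all tested genes were 0.00 in each of these comparisons. Between the hairpins the members' median was -0.34, against -0.01 over all genes, and 39 of 49 members were below 0. Of the tested members, 3 passed the filter on low counts through the hairpin libraries only (Ms4a7, Ms4a4c and Pira13) and 2 through shNT only (Cd300ld2 and Clec11a). The 5 untested members did not pass it (Siglec15, Ms4a4a, Ms4a14, Clec1b and Lilra6). Ms4a7 is counted among the higher members above, although only the hairpin libraries brought it into the test. In the counts by libraries, Ms4a7, Ms4a4c and Pira13 are all among the 15 members above shNT. Clec11a, brought in by shNT only, is among the 4 below, and with Cd300ld2 among the 11 below for shDpep2.968. For these members the filter itself favours the side on which they lie.

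**Figure D1:**
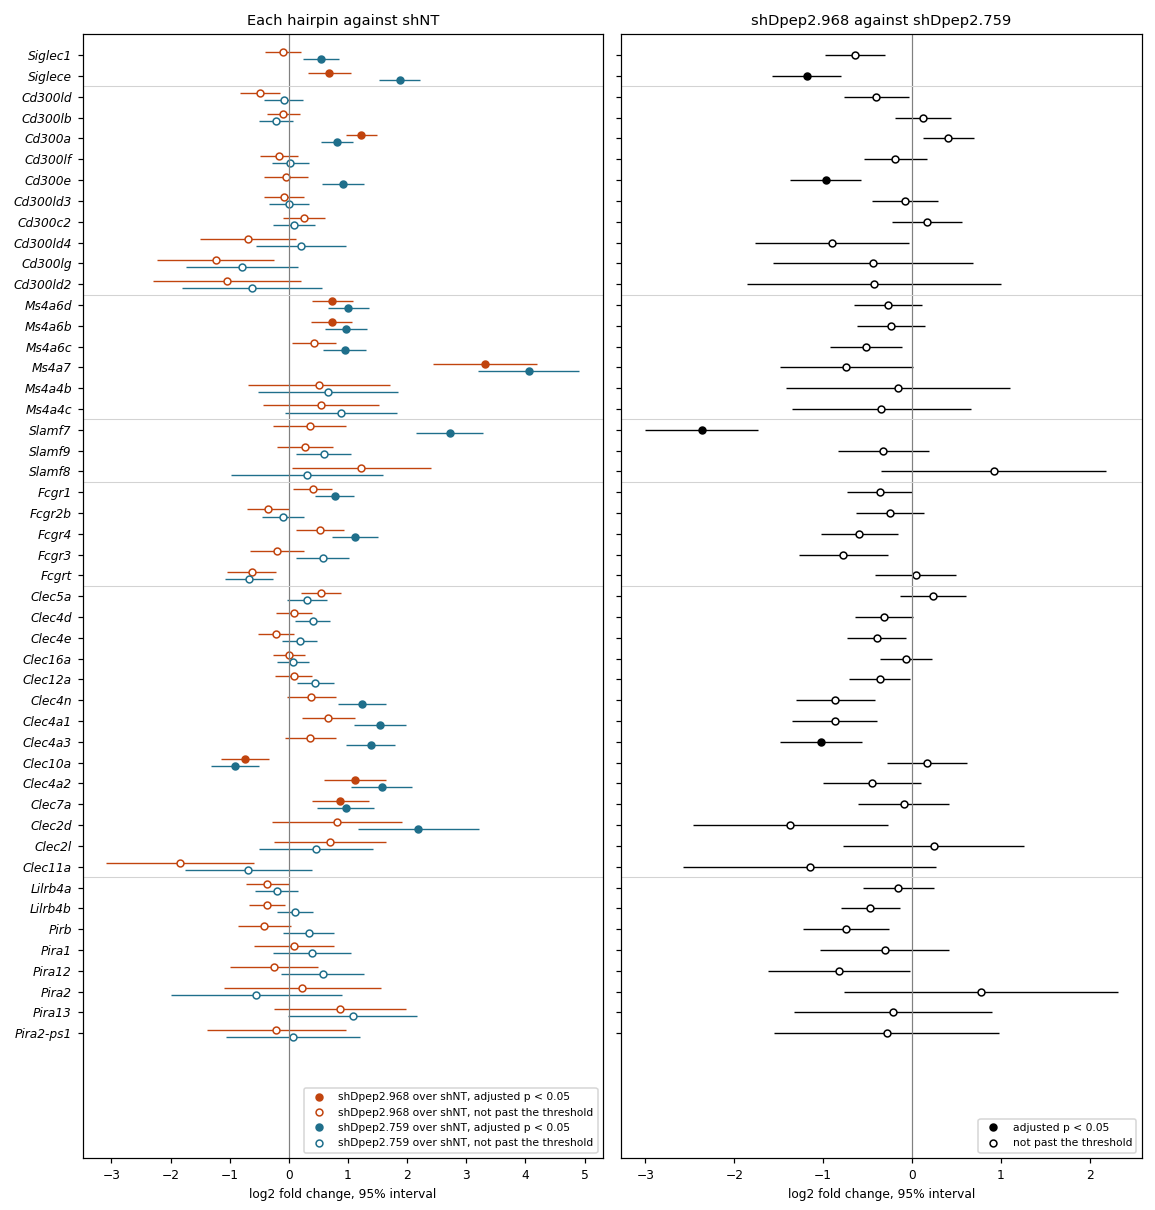
Log2 fold change (x axis) of each tested member but Cd300ld5, whose interval would run off the axis, with its 95% interval. Left, each Dpep2 hairpin over shNT, with shDpep2.968 above shDpep2.759 in each pair; right, shDpep2.968 over shDpep2.759. Filled points passed an adjusted p of 0.05, and most filled points on the left lie right of 0, with Clec10a left of it for both hairpins.

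Members of the same symbol prefix often lie side by side in the mouse genome. In the gene order of RefSeq, counting as neighbours genes at most 20 coding genes apart, 10 of the Cd300 members formed 1 row, the 8 Ms4a members another, and Clec4a1, Clec4a3, Clec4a2, Clec4n, Clec4d and Clec4e one more. Of the Ms4a row, 4 of its 6 tested genes rose averaged and with shDpep2.759 alone, and 3 rose with shDpep2.968. The shares over all genes tested were 3.44%, 2.72% and 2.29%. Ms4a7, called in each of these, and Ms4a4c, called in none, passed the low-count filter through their hairpin libraries only. From the Clec4 row of 6, 4 rose averaged, 1 with shDpep2.968 and 4 with shDpep2.759. The Cd300 row had 1 of 10 higher averaged and with shDpep2.968, and 2 with shDpep2.759, against the same shares over all genes.

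The sequences around the starts of 6 members are shown because each is the member of its family with the smallest p in the averaged comparison (no Lilr or Pir member passed). They are from RefSeq, build GRCm38.p6, 300 bases each on the gene's own strand, written 5′ to 3′. Capitals mark matches, on either strand, to 7 motifs: the PU.1 core GAGGAAG, the interferon-response pair (GAAA, any 2 bases, GAAA), the NF-kB motif GGGNNTTCC, the STAT motif TTCNNNGAA, the AP-1 motif TGANTCA, the E-box CACGTG and the C/EBP motif TTGCNNAA.
Siglece, chr7:43660112-43660411, minus strand: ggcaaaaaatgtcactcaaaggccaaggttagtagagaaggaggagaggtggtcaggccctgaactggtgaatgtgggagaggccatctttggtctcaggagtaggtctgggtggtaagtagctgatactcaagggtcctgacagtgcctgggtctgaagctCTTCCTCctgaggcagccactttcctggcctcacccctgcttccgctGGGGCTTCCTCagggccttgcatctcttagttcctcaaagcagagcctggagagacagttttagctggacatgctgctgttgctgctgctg
Cd300a, chr11:114889791-114890090, plus strand: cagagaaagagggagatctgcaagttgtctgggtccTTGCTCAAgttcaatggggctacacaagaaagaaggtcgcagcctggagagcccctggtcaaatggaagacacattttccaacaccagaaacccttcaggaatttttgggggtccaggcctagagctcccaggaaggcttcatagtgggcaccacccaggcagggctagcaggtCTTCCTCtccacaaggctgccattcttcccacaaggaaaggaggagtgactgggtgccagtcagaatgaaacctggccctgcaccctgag
Ms4a7, the entry of its pair of starts that holds a match, chr19:11334646-11334945, minus strand: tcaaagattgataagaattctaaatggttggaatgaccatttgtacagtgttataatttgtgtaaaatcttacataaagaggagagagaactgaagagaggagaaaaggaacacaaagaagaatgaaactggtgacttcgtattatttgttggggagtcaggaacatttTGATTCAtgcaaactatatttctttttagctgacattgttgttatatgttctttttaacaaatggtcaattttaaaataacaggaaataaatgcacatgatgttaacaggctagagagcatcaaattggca
Slamf7, chr1:171648950-171649249, minus strand: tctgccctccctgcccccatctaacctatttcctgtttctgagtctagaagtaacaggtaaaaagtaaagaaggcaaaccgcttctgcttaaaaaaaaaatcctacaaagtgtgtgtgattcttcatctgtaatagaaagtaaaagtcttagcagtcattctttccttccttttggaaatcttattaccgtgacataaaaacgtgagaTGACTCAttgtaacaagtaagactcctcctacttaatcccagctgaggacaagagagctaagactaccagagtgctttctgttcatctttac
Fcgr4, chr1:171018676-171018975, plus strand: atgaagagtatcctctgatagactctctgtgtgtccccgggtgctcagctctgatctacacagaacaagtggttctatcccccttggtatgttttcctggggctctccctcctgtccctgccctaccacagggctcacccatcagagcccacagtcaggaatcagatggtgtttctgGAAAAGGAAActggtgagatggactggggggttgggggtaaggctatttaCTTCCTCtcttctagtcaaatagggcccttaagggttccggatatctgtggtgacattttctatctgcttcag
Clec4a2, chr6:123122440-123122739, plus strand: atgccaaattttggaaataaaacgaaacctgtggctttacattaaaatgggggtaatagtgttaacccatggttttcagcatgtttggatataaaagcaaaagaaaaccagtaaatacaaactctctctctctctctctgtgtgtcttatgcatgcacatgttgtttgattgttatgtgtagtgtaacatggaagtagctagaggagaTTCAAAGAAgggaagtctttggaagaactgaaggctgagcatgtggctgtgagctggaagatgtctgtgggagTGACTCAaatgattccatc
PU.1, encoded by Spi1, is a transcription factor that macrophages require to form, and its core was found in 21 of the members' 46 promoter entries (45.7%; 42 of 54 members have an entry), against 13.6% of all 32851 promoters. Copies weigh on that share: 4 of the 21 entries belong to Cd300ld genes, 4 to the Pira, Pirb and Lilra6 genes and 2 to Fcgr3. Among the 6 shown, Siglece holds 2 PU.1 matches, 1 of which overlaps its NF-kB match, and Cd300a and Fcgr4 hold 1 each. Cd300a also has a C/EBP match, a motif in 17.4% of the members' entries and 10.8% of all promoters, and Fcgr4 has an interferon-response pair (10.9% and 3.44%). Slamf7, Ms4a7 and Clec4a2 each have an AP-1 match (15.2% and 7.81%), and Clec4a2 has a STAT match too (6.52% and 8.3%). NF-kB matches occur in 10.9% of the members' entries and 5.82% of all promoters, and E-boxes in 8.7% and 7.15%. A match describes the letters of these windows and is not a shown site of binding.

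**Figure D2:**
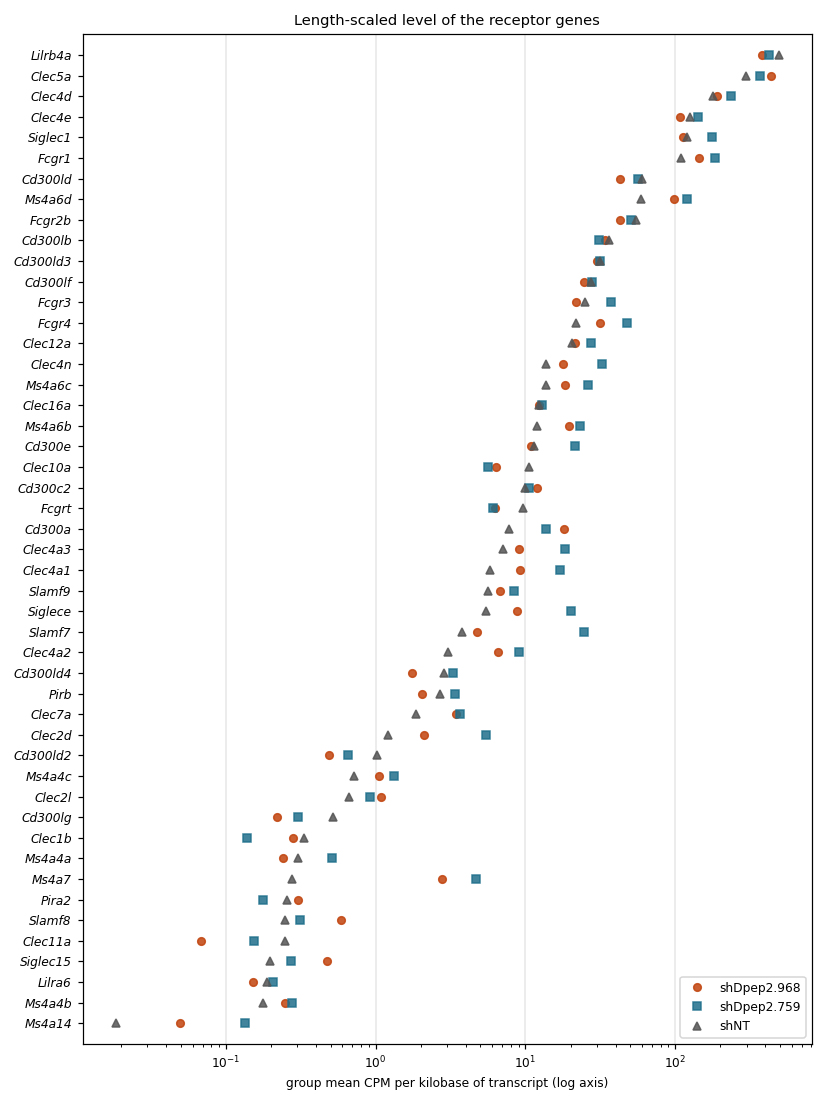
Group mean level in CPM per kilobase of transcript (x axis, log scale) for the members with a transcript length, ordered by the level in shNT (triangles). Circles are shDpep2.968 and squares shDpep2.759; Lilrb4a, Clec5a and Clec4d lead in shNT, and the Ms4a7 hairpin points stand far right of its shNT point. Cd300ld5 is not drawn, being at 0 with shDpep2.759.

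Scaled by median transcript length from GENCODE M21, levels in shNT cells covered a wide range. Lilrb4a led at 490 CPM per kilobase, followed by Clec5a at 298, Clec4d at 178, Clec4e at 126, Siglec1 at 121 and Fcgr1 at 108.5. Below these came Cd300ld at 59.6, Ms4a6d at 59.3 and Fcgr2b at 54.4 CPM per kilobase. In all, 13 members had totals under 100 counts over all libraries, with 0 to 24 counts in any one of them. The members called in a comparison were spread over this range, and include Fcgr1 near the top and Ms4a7 near the bottom.

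**Figure D3:**
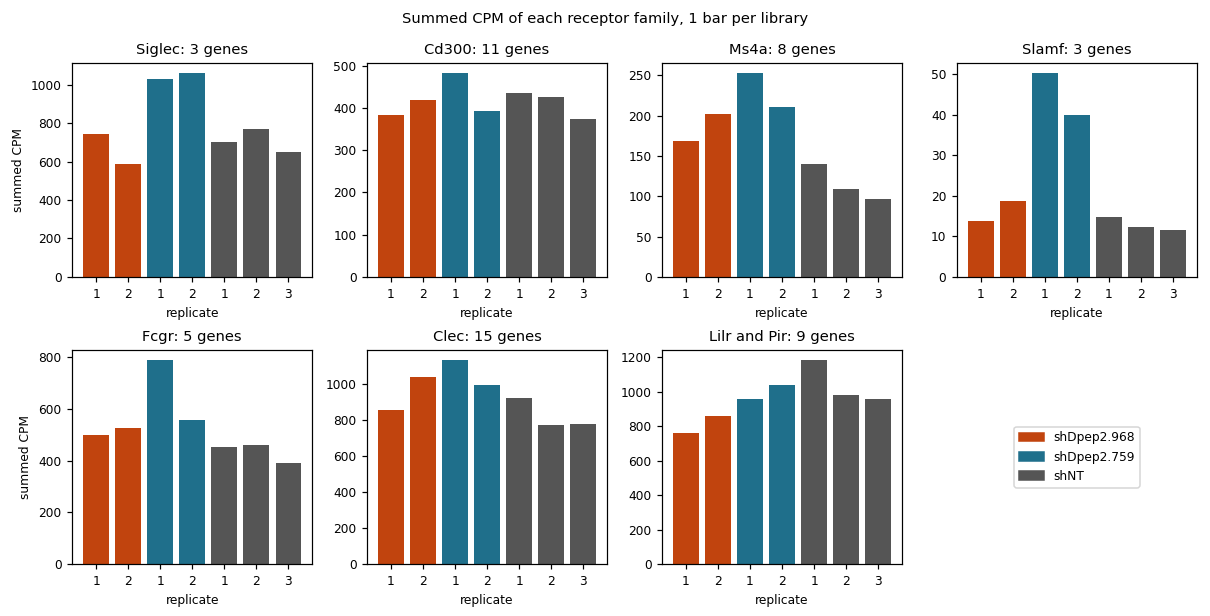
Summed CPM of all members of each family (y axis, from 0), 1 bar per library, with shDpep2.968 and shDpep2.759 left of shNT. The Ms4a bars of both hairpins and the Slamf bars of shDpep2.759 stand above all shNT bars, and the Lilr and Pir bars of shDpep2.968 stand below them.

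By family, summed levels moved unequally. The Slamf sum was 16.3 ± 3.43 CPM under shDpep2.968 and 45.1 ± 7.34 CPM under shDpep2.759, against 12.9 ± 1.72 CPM under shNT (SD, n = 2, 2 and 3 here and for the sums below). Ms4a genes summed to 185 ± 23.9 CPM under shDpep2.968 and 232 ± 29.2 CPM under shDpep2.759, against 115 ± 22.7 CPM under shNT. The Lilr and Pir sum was 810 ± 69.2 CPM under shDpep2.968 and 997 ± 56.8 CPM under shDpep2.759, against 1041 ± 123 CPM under shNT. Fcgr genes summed to 501 and 526 CPM under shDpep2.968 and 789 and 559 CPM under shDpep2.759, against 454, 462 and 391 CPM under shNT, each hairpin library above shNT. The Siglec sum was 665 ± 109 CPM under shDpep2.968 and 1045 ± 20.1 CPM under shDpep2.759, against 706 ± 61.6 CPM under shNT, and the Clec sum was 946 ± 132 CPM under shDpep2.968 and 1064 ± 94.9 CPM under shDpep2.759, against 824 ± 84.6 CPM under shNT. Cd300 sums stayed close to one another, at 401 ± 24.8, 438 ± 62.6 and 411 ± 32.5 CPM under shDpep2.968, shDpep2.759 and shNT. A sum follows its most abundant member: Siglec1 made up 97.4% to 99.2% of the Siglec sum. No test was made on the sums.

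Siglecs bind sialic acid on glycoproteins and glycolipids. Siglece, an inhibitory receptor of myeloid cells, was at 10.8 and 11.6 CPM under shDpep2.968 and at 26.4 and 24.5 CPM under shDpep2.759, against 5.74, 7.12 and 7.99 CPM under shNT. All hairpin libraries lay above all shNT libraries, and the shDpep2.759 libraries lay above those of shDpep2.968. Its log2 fold change was 1.28 ± 0.14 averaged (SE; edgeR adjusted p = 0.000274), 0.68 ± 0.17 with shDpep2.968 (edgeR adjusted p = 0.0355) and 1.87 ± 0.16 with shDpep2.759 (edgeR adjusted p = 7.58e-05), that is, 1.61-fold and 3.66-fold. The hairpins themselves differed by -1.19 (95% interval -1.57 to -0.80, edgeR adjusted p = 0.0141). This difference missed the threshold without shDpep2.968 replicate 1 or 2 (adjusted p = 0.0807 and 0.148). The call with shDpep2.968 missed the threshold when any of 5 libraries was left out: shDpep2.968 replicate 1 or 2 (adjusted p = 0.0828 and 0.278) or shNT replicate 1, 2 or 3 (0.0698, 0.118 and 0.0607).

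Siglec1, or sialoadhesin, is the macrophage adhesion receptor CD169, which has no ITIM. It was at 731 and 576 CPM under shDpep2.968 and at 1004 and 1034 CPM under shDpep2.759, against 695, 763 and 639 CPM under shNT. Only the shDpep2.759 libraries were apart from shNT, at a log2 fold change of 0.54 ± 0.14 (edgeR adjusted p = 0.0431), with -0.10 for shDpep2.968 (adjusted p = 0.716). That call was lost when any 1 of 5 libraries was left out, namely shDpep2.759 replicate 1 or 2 (adjusted p = 0.0679 and 0.0761) or shNT replicate 1, 2 or 3 (0.0885, 0.0891 and 0.212). The difference between hairpins did not pass with edgeR (-0.64, 95% interval -0.98 to -0.31, adjusted p = 0.0777) but did with DESeq2 (0.00331). Siglec15, a DAP12-linked receptor of osteoclasts, was not tested and stayed between 0.164 and 0.694 CPM.

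Cd300 receptors bind lipids of dying and activated cells. Cd300a, an inhibitory receptor for phosphatidylserine and phosphatidylethanolamine, rose with both hairpins. Its level was 77.9 and 89.9 CPM under shDpep2.968 and 59.0 and 67.3 CPM under shDpep2.759, against 35.3, 36.8 and 35.5 CPM under shNT. The shNT libraries lay within a narrow band below all others. The log2 fold change was 1.02 ± 0.11 averaged (edgeR adjusted p = 0.000199), 1.23 ± 0.12 with shDpep2.968 (0.000381) and 0.82 ± 0.12 with shDpep2.759 (0.00243). Cd300a is the member with the higher level under shDpep2.968 at an unadjusted p under 0.05, but the difference did not pass after adjustment (0.41, 95% interval 0.12 to 0.70, edgeR adjusted p = 0.185).

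Cd300e, an activating receptor that works through DAP12 in human monocytes, was at 26.0 and 19.8 CPM under shDpep2.968 and at 50.4 and 39.3 CPM under shDpep2.759, against 24.7, 26.0 and 20.5 CPM under shNT. With shDpep2.968, 1 value lay within the shNT range and 1 just below it, and both shDpep2.759 values lay above it. The log2 fold change was 0.92 ± 0.17 with shDpep2.759 (edgeR adjusted p = 0.00656) and -0.05 ± 0.17 with shDpep2.968 (0.885). The hairpins differed by -0.97 (95% interval -1.37 to -0.57, edgeR adjusted p = 0.033). Leaving out shDpep2.968 replicate 1 or 2, shDpep2.759 replicate 1 or shNT replicate 3 ended that call (adjusted p = 0.0712, 0.348, 0.152 and 0.0619).

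No other Cd300 gene passed with edgeR. Cd300ld, an activating receptor paired with the FcR gamma chain, was at 108 and 117 CPM under shDpep2.968 and 171 and 127 CPM under shDpep2.759, against 175, 164 and 134 CPM under shNT. Its values were lower with shDpep2.968 than in any shNT library, and the log2 fold change of -0.49 had an adjusted p of 0.086 (0.0461 with DESeq2). Cd300lb, another activating member, ranged from 78.3 to 110 CPM, and the inhibitory Cd300lf, known in mice as the receptor of murine norovirus, from 42.9 to 61.5 CPM. The remaining Cd300ld3, Cd300c2, Cd300ld4, Cd300lg and Cd300ld2 had log2 fold changes between -1.02 and 0.17 averaged. Cd300ld5 had all its counts in 2 libraries, 24 in shDpep2.968 replicate 2 and 23 in shNT replicate 1. The Cd300ld genes are close copies, and how the authors' counting divided reads among them is uncertain: their sum was 132 and 149 CPM under shDpep2.968 and 203 and 154 CPM under shDpep2.759, against 203, 197 and 164 CPM under shNT.

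Ms4a genes code for membrane-spanning proteins related to the B cell protein CD20 (Ms4a1), which had only 4 counts here. Ms4a7, a gene of mature macrophages, showed the largest change of any called member. It passed the low-count filter through the hairpin libraries only, so the groups where it was high brought it into the test. It had 42 and 65 counts with shDpep2.968 and 90 and 90 counts with shDpep2.759, against 6, 8 and 2 counts with shNT, or 2.43 and 3.74 CPM, 5.05 and 5.27 CPM, and 0.363, 0.438 and 0.112 CPM. No hairpin library came near the shNT libraries, whose counts are low enough that the size of the fold is imprecise. The log2 fold change was 3.68 averaged (95% interval 2.89 to 4.48, edgeR adjusted p = 0.000137), 3.31 ± 0.41 with shDpep2.968 (0.00097) and 4.05 ± 0.40 with shDpep2.759 (0.000158). Between the hairpins it differed by -0.74 (95% interval -1.49 to 0.01, adjusted p = 0.337).

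Ms4a6d, Ms4a6b and Ms4a6c, neighbouring and similar genes of myeloid cells, were higher as well. Ms4a6d was at 95.1 and 112 CPM under shDpep2.968 and 134 and 116 CPM under shDpep2.759, against 76.9, 58.5 and 51.1 CPM under shNT. Ms4a6b was at 38.2 and 47.5 CPM under shDpep2.968 and 56.1 and 45.0 CPM under shDpep2.759, against 30.3, 24.9 and 22.5 CPM under shNT. For Ms4a6c the levels were 30.8 and 36.6 CPM under shDpep2.968 and 54.4 and 41.9 CPM under shDpep2.759, against 30.0, 23.9 and 21.3 CPM under shNT. In each of the 3 genes every hairpin library exceeded every shNT library, and shNT replicate 1 was the highest control. The averaged log2 fold changes were 0.87, 0.84 and 0.68 (edgeR adjusted p = 0.0028, 0.00326 and 0.013). With shDpep2.759 all 3 passed (1.01, 0.96 and 0.94), and with shDpep2.968 Ms4a6d (0.74, adjusted p = 0.0212) and Ms4a6b (0.72, 0.0234) passed while Ms4a6c (0.43, 0.16) did not. The differences between the hairpins did not pass (adjusted p = 0.494, 0.543 and 0.231).

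Some of these calls did not hold when 1 library was left out. The averaged call of Ms4a6c was lost without shDpep2.968 replicate 2 and without replicate 2 or 3 of shNT (edgeR adjusted p = 0.0583, 0.0767 and 0.102). With shDpep2.968, Ms4a6b was lost without the same 3 libraries (0.297, 0.0934 and 0.117), and Ms4a6d without these (0.272, 0.0977 and 0.109) or shDpep2.968 replicate 1 (0.0543). Reads of such similar genes may be divided uncertainly, and the sum of the 3 was 1.59-fold with shDpep2.968 and 1.98-fold with shDpep2.759 relative to shNT. Ms4a4b and Ms4a4c had log2 fold changes of 0.59 and 0.71 averaged (adjusted p = 0.492 and 0.29), and the untested Ms4a4a and Ms4a14 had 35 and 30 counts in all.

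Most Slamf receptors bind their own kind on neighbouring cells. Slamf7, a self-binding receptor of NK cells, plasma cells and macrophages, had the largest hairpin difference among the 4 members called for it. It was at 4.28 and 8.70 CPM under shDpep2.968 and at 36.0 and 31.1 CPM under shDpep2.759, against 6.41, 4.22 and 4.69 CPM under shNT. With shDpep2.968, 1 library lay within the shNT range and 1 above it, and the shDpep2.759 libraries were far above both groups. With shDpep2.759 the log2 fold change was 2.72 ± 0.26, or 6.58-fold (edgeR adjusted p = 0.000221), and with shDpep2.968 it was 0.35 (95% interval -0.27 to 0.97, adjusted p = 0.484). The difference between the hairpins was -2.37 (95% interval -3.004 to -1.733, edgeR adjusted p = 0.011), and it passed with each of the 7 libraries left out in turn. The averaged value of 1.53 (adjusted p = 0.00324) is thus a mean of unlike effects, and with the hairpin libraries fitted as 1 group it had an adjusted p of 0.277.

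Slamf9 and Slamf8, family members with short cytoplasmic tails, did not pass with edgeR, DESeq2 or limma-voom. Slamf9 was at 8.33 and 9.33 CPM under shDpep2.968 and 13.8 and 8.26 CPM under shDpep2.759, against 8.10, 7.34 and 6.59 CPM under shNT. Every hairpin library was above every shNT library, at a log2 fold change of 0.43 (edgeR adjusted p = 0.187). Slamf8 had 74 counts in all.

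Fc gamma receptors bind the constant part of IgG. Fcgr1, the high-affinity activating receptor, was at 368 and 377 CPM under shDpep2.968 and 562 and 398 CPM under shDpep2.759, against 300.3, 292 and 250.3 CPM under shNT. Fcgr4, an activating receptor for IgG2a and IgG2b in mice, was at 35.4 and 43.9 CPM under shDpep2.968 and 64.7 and 54.9 CPM under shDpep2.759, against 33.5, 28.3 and 20.7 CPM under shNT. All hairpin libraries were above all shNT libraries for both genes. The averaged log2 fold changes were 0.59 ± 0.13 for Fcgr1 and 0.82 ± 0.16 for Fcgr4 (edgeR adjusted p = 0.0161 and 0.00766), and those with shDpep2.759 were 0.77 and 1.12 (0.0112 and 0.00379). With shDpep2.968 neither passed (0.41 and 0.53, adjusted p = 0.137 and 0.115), and neither did the differences between hairpins (-0.37 and -0.59, adjusted p = 0.332 and 0.201).

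Fcgr1 was the less stable of the pair. Its averaged call was lost without shDpep2.968 replicate 2 and without replicate 2 or 3 of shNT (edgeR adjusted p = 0.0562, 0.0643 and 0.119), and its shDpep2.759 call without shDpep2.759 replicate 1 or shNT replicate 3 (0.072 and 0.0772). Fcgr2b, the inhibitory receptor, was at 64.1 and 66.2 CPM under shDpep2.968 and 93.4 and 61.5 CPM under shDpep2.759, against 75.7, 92.7 and 79.8 CPM under shNT, and did not pass (averaged -0.22, adjusted p = 0.364). Fcgr3, a low-affinity activating receptor whose sequence is close to that of other Fcgr genes, was at 26.3 and 31.6 CPM under shDpep2.968 and 61.2 and 37.8 CPM under shDpep2.759, against 34.8, 37.9 and 26.9 CPM under shNT. Its shDpep2.759 libraries differed widely from each other and replicate 2 overlapped shNT (0.58, edgeR adjusted p = 0.143). Its hairpin difference of -0.77 passed with DESeq2 (0.0367) and not with edgeR (0.151).

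Fcgrt, the neonatal Fc receptor that recycles IgG and albumin inside cells, was lower with the hairpins averaged. It was at 7.40 and 7.49 CPM under shDpep2.968 and 7.86 and 6.62 CPM under shDpep2.759, against 9.73, 11.3 and 13.5 CPM under shNT, so the groups did not overlap. The averaged log2 fold change was -0.65 ± 0.15, or 63.8% of the shNT level (edgeR adjusted p = 0.023). Neither hairpin alone passed (-0.63 and -0.67, adjusted p = 0.0718 and 0.0643 for shDpep2.968 and shDpep2.759). Without shDpep2.968 replicate 1 or 2, shDpep2.759 replicate 2, or shNT replicate 2 or 3, the averaged call was lost too (adjusted p = 0.0557, 0.0711, 0.0509, 0.0807 and 0.152).

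**Figure D4:**
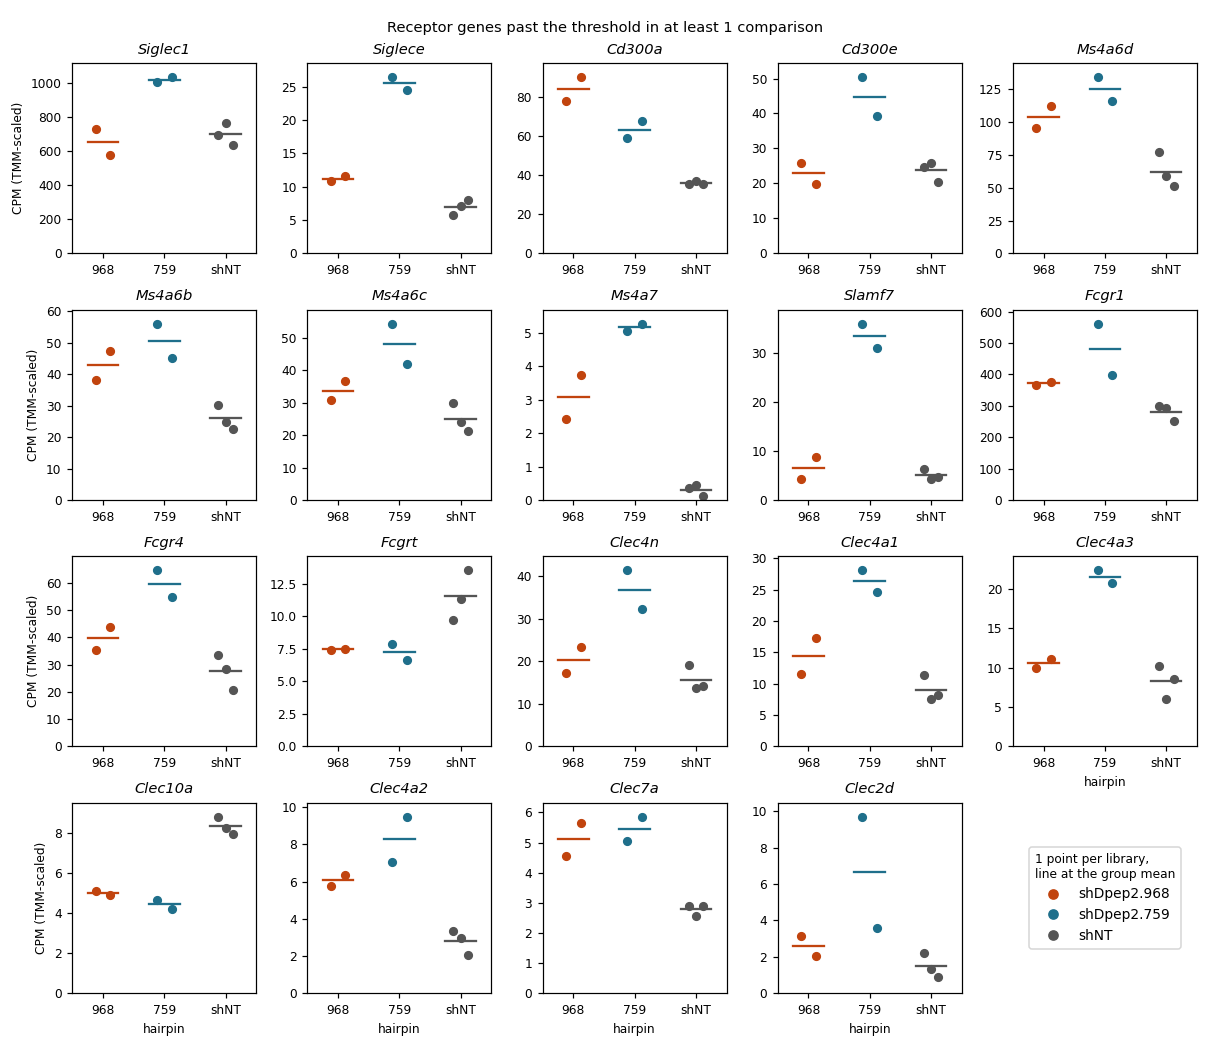
Level in TMM-scaled CPM (y axis, from 0, with its own scale in each panel) of the 19 members that passed the threshold in at least 1 comparison, 1 point per library and a line at the group mean. The libraries of both Dpep2 hairpins stand left of shNT. For Cd300a, Ms4a7 and Clec7a all hairpin points lie above all shNT points. For Slamf7, Cd300e and Siglec1 only the shDpep2.759 group lies wholly above shNT, though the Siglec1 difference between hairpins did not pass (edgeR adjusted p = 0.0777).

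The Clec genes code for C-type lectins, many of which bind microbial sugars. Clec4a2 (DCIR), an inhibitory receptor, was at 5.78 and 6.34 CPM under shDpep2.968 and 7.07 and 9.49 CPM under shDpep2.759, against 3.32, 2.96 and 2.07 CPM under shNT. Its relatives in the same row had more of their change with shDpep2.759. Clec4a1 was at 11.6 and 17.3 CPM under shDpep2.968 and 28.1 and 24.7 CPM under shDpep2.759, against 11.4, 7.56 and 8.27 CPM under shNT. Clec4a3 was at 10.002 and 11.1 CPM under shDpep2.968 and 22.3 and 20.7 CPM under shDpep2.759, against 10.2, 6.03 and 8.55 CPM under shNT. Clec4a2 was above shNT in every hairpin library, Clec4a1 only narrowly so in shDpep2.968 replicate 1, and Clec4a3 overlapped shNT with shDpep2.968.

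In the averaged comparison Clec4a2, Clec4a1 and Clec4a3 rose by 1.35, 1.11 and 0.87 on the log2 scale (edgeR adjusted p = 0.00236, 0.00294 and 0.00766). With shDpep2.759 the log2 fold changes were 1.57, 1.54 and 1.39 (0.0025, 0.000993 and 0.0014), and with shDpep2.968 they were 1.12, 0.67 and 0.36 (0.0196, 0.0802 and 0.297). DESeq2 also called Clec4a1 with shDpep2.968 (0.0483) and between the hairpins (-0.86, 0.027), where edgeR did not (0.0802 and 0.0924). For Clec4a3 the hairpins differed by -1.03 (95% interval -1.48 to -0.57, edgeR adjusted p = 0.0424). That difference was lost without shDpep2.968 replicate 1 or 2, shDpep2.759 replicate 1 or shNT replicate 3 (adjusted p = 0.162, 0.254, 0.175 and 0.103). The call of Clec4a2 with shDpep2.968 was lost without shDpep2.968 replicate 1 or 2 or shNT replicate 2 or 3 (0.0601, 0.193, 0.0646 and 0.096). These genes are close copies, and their sum was 1.54-fold with shDpep2.968 and 2.79-fold with shDpep2.759 relative to shNT.

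Farther along the row, Clec4n (dectin-2), an activating receptor for fungal mannans, was at 17.2 and 23.4 CPM under shDpep2.968 and 41.5 and 32.3 CPM under shDpep2.759, against 19.2, 13.6 and 14.1 CPM under shNT. The shDpep2.759 values stood above shNT and the shDpep2.968 values overlapped it. The log2 fold change was 0.81 ± 0.16 averaged (edgeR adjusted p = 0.00983), 0.38 with shDpep2.968 (0.258) and 1.24 with shDpep2.759 (0.0025), with a difference of -0.86 between the hairpins (0.0777, and 0.0126 with DESeq2). The averaged call was lost without shNT replicate 2 or 3 (0.0671 and 0.0794). Clec4d and Clec4e (Mincle), receptors for mycobacterial glycolipids at the end of the row, were among the most abundant members and did not pass. Clec4d was at 239 and 261 CPM under shDpep2.968 and 351 and 268 CPM under shDpep2.759, against 251, 225 and 228 CPM under shNT. Clec4e was at 160 and 192 CPM under shDpep2.968 and 248 and 215 CPM under shDpep2.759, against 230, 200 and 183 CPM under shNT. Both genes overlapped shNT with shDpep2.968.

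Clec7a (dectin-1), the receptor for fungal beta-glucan, was at 4.57 and 5.64 CPM under shDpep2.968 and 5.05 and 5.86 CPM under shDpep2.759, against 2.90, 2.58 and 2.91 CPM under shNT. The hairpin libraries were all higher, with near-equal changes: 0.87 with shDpep2.968 (edgeR adjusted p = 0.0416) and 0.96 with shDpep2.759 (0.0254). The difference of -0.09 had a 95% interval of -0.61 to 0.42 (adjusted p = 0.878). Averaged, it was 0.92 ± 0.19 (0.0119), and this was lost without shDpep2.968 replicate 2 and without replicate 2 or 3 of shNT (0.0528, 0.0857 and 0.062). The shDpep2.759 call was lost without shDpep2.759 replicate 2, shNT replicate 2 or 3 (0.11, 0.121 and 0.0948), and the shDpep2.968 call without either library of that hairpin or any of shNT (0.0552 to 0.347).

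Clec10a, a receptor for galactose-type sugars that marks alternatively activated macrophages, was the called member that fell with each hairpin. It was at 5.09 and 4.90 CPM under shDpep2.968 and 4.66 and 4.22 CPM under shDpep2.759, against 8.82, 8.27 and 7.93 CPM under shNT, with no overlap. The log2 fold change was -0.82 ± 0.15 averaged (56.5% of shNT, edgeR adjusted p = 0.00614), -0.74 with shDpep2.968 (0.0389) and -0.91 with shDpep2.759 (0.0147). The shDpep2.968 call was lost without either of its libraries (0.113 and 0.283) or without shNT replicate 1, 2 or 3 (0.0668, 0.135 and 0.114), and the shDpep2.759 call without shDpep2.759 replicate 2 or shNT replicate 2 (0.0663 and 0.0532). Clec2d, in mice a ligand of an inhibitory NK cell receptor, was at 3.12 and 2.02 CPM under shDpep2.968 and 9.71 and 3.57 CPM under shDpep2.759, against 2.18, 1.31 and 0.894 CPM under shNT. Its shDpep2.759 change of 2.19 ± 0.46 (0.0244) was lost without shDpep2.759 replicate 1 and without replicate 2 or 3 of shNT (0.109, 0.128 and 0.0906), and replicate 1 was far above its partner. Averaged, Clec2d missed the threshold with edgeR (0.0565) and passed with DESeq2 (0.00322).

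Clec5a, a DAP12-linked receptor and the lectin with the highest level per kilobase in shNT cells, did not pass with edgeR. It was at 318 and 428 CPM under shDpep2.968 and 316 and 318 CPM under shDpep2.759, against 300.0, 224 and 243 CPM under shNT. All hairpin libraries were above shNT, at 0.43 averaged (95% interval 0.14 to 0.72, edgeR adjusted p = 0.0696), and it passed with DESeq2 averaged and for shDpep2.968 (0.0209 and 0.013). Clec12a, an inhibitory receptor that senses uric acid crystals, ranged from 31.1 to 50.0 CPM, Clec16a from 43.5 to 51.3 CPM, and Clec2l and Clec11a reached at most 1.68 CPM. The untested Clec1b had 20 counts in all.

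Lilr and Pir genes code for receptors of the immunoglobulin superfamily, several of which bind MHC class I. Averaged over the hairpins, 0 of 8 tested members passed with edgeR, 1 was higher at an unadjusted p under 0.05 (Pira13) and 0 passed with DESeq2 or limma-voom. Pira13 passed the low-count filter through the hairpin libraries only, so the groups where it was high brought it into the test. Lilrb4a, an inhibitory receptor, was at 422 and 501 CPM under shDpep2.968 and 422 and 606 CPM under shDpep2.759, against 681, 555 and 544 CPM under shNT. Its copy Lilrb4b, which lacks the ITIM, was at 325 and 344 CPM under shDpep2.968 and 511 and 413 CPM under shDpep2.759, against 484, 409 and 400.0 CPM under shNT. With shDpep2.968 both were below all shNT libraries, at -0.36 and -0.37 (edgeR adjusted p = 0.225 and 0.146). The sum of the pair was 0.777-fold with shDpep2.968 and 0.953-fold with shDpep2.759.

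Pirb, the inhibitory partner of the Pira receptors, was at 7.63 and 7.89 CPM under shDpep2.968 and 15.7 and 10.3 CPM under shDpep2.759, against 12.1, 9.53 and 9.33 CPM under shNT. The shDpep2.968 libraries lay below shNT, the shDpep2.759 libraries overlapped it, and no test passed (hairpin difference -0.75, edgeR adjusted p = 0.151). Pira1, Pira12, Pira2, Pira13 and the pseudogene Pira2-ps1 are near-identical to one another and ranged from 0.181 to 3.28 CPM. Reads may be divided among them and Pirb with uncertainty. The 6 genes together summed to 13.6 and 13.5 CPM under shDpep2.968 and 23.4 and 17.4 CPM under shDpep2.759, against 16.5, 16.1 and 15.3 CPM under shNT.

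Genes that act with these receptors were counted from lists of their pathway. Of 22 ITAM adaptors and kinases, 4 rose averaged and 0 fell (1 at an unadjusted p under 0.05, and 0 with DESeq2 or limma-voom): Src, Blnk, Pik3r5 and Syk, at log2 fold changes of 1.18, 0.83, 0.54 and 0.41 (edgeR adjusted p = 0.000504, 0.00326, 0.00932 and 0.0262). Over all genes 3.44% were higher averaged, the share to set beside this count and those of the other lists, and the list's median was 0.07, against 0.00 over all genes. The adaptors themselves did not pass averaged, with Tyrobp at 0.22 (0.398) and Fcer1g at 0.46 (0.0623), though Fcer1g rose with shDpep2.759 (0.72, 0.0217). On its own, shDpep2.968 had 2 genes of the list higher and 1 lower (Fgr, -0.63, 0.0393), against 2.29% and 2.96% of all genes. With shDpep2.759 alone 6 were higher, against 2.72% of all genes. Between the hairpins, the Src-family kinase gene Fgr and the PI3-kinase subunit gene Pik3r5 were lower with shDpep2.968 (-0.95 and -0.66, 0.0266 and 0.0492). Over all genes 0.585% were lower in that comparison.

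Of 7 tested inhibitory phosphatases and SLAM adaptors, 0 passed in the averaged comparison (edgeR, with 0 at an unadjusted p under 0.05, and 0 with DESeq2 or limma-voom), and the median was 0.00. Ptpn6, a gene for a phosphatase that ITIMs recruit, was at 360 and 326 CPM under shDpep2.968 and 423 and 385 CPM under shDpep2.759. Under shNT it was at 386, 451 and 378 CPM. A list of receptors of the same families under other names also holds Trim21, an intracellular Fc receptor that belongs to none of these families. Of its 19 tested genes, 4 rose: Trim21 by 0.83, Ly9 and Cd48, both of the SLAM family, by 0.58 and 0.59, and Mrc1, the mannose receptor, by 1.25 on the log2 scale (edgeR adjusted p = 0.00366, 0.00621, 0.0343 and 0.036). Their list's median was 0.43. A list of other paired and DAP12-linked receptors, which also holds the pore-forming protein gene Mpeg1 and the membrane protein genes Tmem176a and Tmem176b, had 7 of 17 higher (3.44% over all genes). Mpeg1 was 1 of the 7 (0.49, edgeR adjusted p = 0.0291), and among the others were Pilra (0.89), Treml4 (1.12), Sirpb1c (1.58) and Pilrb1 (0.99; adjusted p = 0.00503, 0.0168, 0.0173 and 0.0275), with a median of 0.42. Of this last list, 1 rose with shDpep2.968 alone and 7 with shDpep2.759 alone, against 2.29% and 2.72% of all genes. The 1 was Trem2 (0.52, edgeR adjusted p = 0.0363), at -0.05 with shDpep2.759 (0.876). Between the hairpins 0 of the 17 passed with edgeR and 1 with DESeq2, against 0.84% and 2.82% of all genes. At an unadjusted p under 0.05, edgeR had 7 higher and 1 lower with shDpep2.968, and 9 higher and 2 lower with shDpep2.759. The counts alone thus do not show a difference between the hairpins.

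Marker genes of other cell states differed between the groups too, though not all in 1 direction. Osteoclast markers summed to 125 to 127 CPM under shDpep2.968 and 151 to 155 CPM under shDpep2.759, against 50.9 to 63.2 CPM under shNT. Of that list of 6, 5 were detected, and Calcr was at 0. Acp5 carried most of it, at 87.4 and 81.1 CPM under shDpep2.968 and 123 and 115 CPM under shDpep2.759, against 33.0, 24.98 and 19.4 CPM under shNT. Ocstamp rose with shDpep2.968 (1.67, edgeR adjusted p = 0.000381) and was at 0.01 with shDpep2.759 (0.985), and Dcstamp was at 0.11 averaged (0.704). Neutrophil markers summed to 34.2 to 50.3 CPM under shDpep2.968 and 99.99 to 237 CPM under shDpep2.759, against 17.3 to 33.7 CPM under shNT. Almost all of it was S100a8, with Ly6g at 0 and 5 of 6 markers detected. S100a8 did not pass averaged, with shDpep2.968, with shDpep2.759 or between the hairpins (edgeR adjusted p = 0.0899, 0.39, 0.0587 and 0.24). Dendritic cell markers, 4 of 5 detected and Cd209a at 0, summed to 1.21 to 1.56 CPM under shDpep2.968 and 4.21 to 4.80 CPM under shDpep2.759, against 1.64 to 2.18 CPM under shNT. The higher sum with shDpep2.759 was Ccr7 (2.56, edgeR adjusted p = 0.00232), which was at -0.12 with shDpep2.968 (0.903), while Zbtb46 was at -0.89 averaged (0.305). Fibroblast markers, 3 of 4 detected with Col1a2 at 0, summed to 1.04 to 1.45 CPM under shDpep2.968 and 2.34 to 2.41 CPM under shDpep2.759, against 0.544 to 1.29 CPM under shNT, most of it Dcn with shDpep2.759. The part of any of these states in the receptor changes was not tested, and in bulk RNA a change in the number of expressing cells cannot be told apart from a change in RNA per cell.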

How the data were processed

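Total RNA of 7 libraries (shDpep2.968, n = 2; shDpep2.759, n = 2; shNT, n = 3) was made into stranded Illumina libraries, per the labels' protocols. The authors deposited 1 table of whole-number counts per gene symbol. Trim Galore and Salmon are named, without versions or roles, in the submitters' processing notes. The notes give the build hg38, although the symbols are mouse; not given in the sources used here are the annotation, the strand setting and how estimates became whole numbers. Salmon divides reads among similar transcripts by a model, which bears on close gene copies.

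From these counts, genes were kept by filterByExpr over the 3 groups, scaled by TMM and fitted with edgeR 4.0.16 (R 4.3.3; robust quasi-likelihood, 1 mean per group over all 7 libraries, 4 residual degrees of freedom, biological coefficient of variation 13.8%). The comparisons were tested, and p-values were adjusted by Benjamini and Hochberg over 13329 genes. SEs and 95% intervals come from the same fit. The steps were tested on simulated counts. Groups were taken from the labels. Replicates of a group differed beyond sampling noise (a chi-square over genes of 15.5 to 45.1 per degree of freedom). Depth differed little between libraries, and counting error bears mainly on members with few counts. Alternatives were DESeq2 1.42.0, limma 3.58.1 (voom), other scalings, filters and designs, a GC and length correction with splines of 4 degrees of freedom, and each library left out.

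Named are Dpep2; every member past the threshold in a comparison; in each family up to 3 further members with the highest counts; of each partner list up to 4 genes with the smallest p past the threshold averaged, or else the one with the most counts; other genes were named after their values were seen. The members and lists were chosen with earlier results of these data known.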

Additional observations from a re-analysis of the deposited data

Results flagged for a closer look

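Of the receptor genes, 4 differed between the Dpep2 hairpins in edgeR's test of the difference itself, which lies outside the comparison with shNT. Slamf7 was lower by 2.37 on the log2 scale (-2.37) with shDpep2.968 than with shDpep2.759, the largest of the 4. Siglece differed by -1.19, Clec4a3 by -1.03 and Cd300e by -0.97, each lower with shDpep2.968. Dpep2 itself differed by -0.14 between the hairpins (edgeR adjusted p = 0.725), and the cause of the 4 differences was not tested.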

How the results depend on the processing

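Of 46 calls of named members, 22 held in every alternative run. For shDpep2.968, 8 members passed; 13 passed without a low-count filter, 13 with the GC and length correction (chosen after seeing the data), and 2 to 12 with 1 library left out. The share of all genes called there was 5.25%, against 5.61% without the filter, 13.3% with the correction and 0.496% to 9.41% with 1 library left out. Between the hairpins, 4 passed; 11 passed without the filter, 8 with DESeq2, 2 with limma-voom, 2 without robust estimation, 11 with the GC and length correction, and 1 to 14 with 1 library left out. There the share of all genes was 0.84%, against 2.6% without the filter, 2.82% with DESeq2, 3.97% with the correction and 0.0432% to 7.69% with 1 library left out. The share between the hairpins was 0.405% with limma-voom and 0.473% without robust estimation. Averaged, 16 passed (7.59% of all genes), against 8 with all hairpin libraries as 1 group (4.05%). With 1 shNT library left out, 11 to 18 passed averaged (2.43% to 7.92%). With shDpep2.759, 18 passed (4.73%), and 14 to 18 with 1 shNT library left out (1.91% to 4.94%). The cause was not tested. Of 900 values of Dpep2 and the named members under the alternatives, 788 kept their direction and side of the threshold. DESeq2 lost Clec10a and Clec7a with shDpep2.968 (adjusted p = 0.0502 and 0.0508). Limma-voom lost Siglece and Clec7a with shDpep2.968 (0.0584 and 0.0581), Siglec1 with shDpep2.759 (0.0527), and Cd300e and Clec4a3 between the hairpins (0.0593 and 0.0648). The fit without robust estimation lost Clec7a with shDpep2.968 (0.0538), Siglec1 with shDpep2.759 (0.0575), and Cd300e and Clec4a3 between the hairpins (0.0552 and 0.069). Library size alone lost Siglec1 with shDpep2.759 (0.0552), and the GC and length correction lost Ms4a6b with shDpep2.968 (0.0608). The labels do not say whether the replicate numbers pair the libraries. Correlations of same-numbered deviations from the group mean (-0.225 to 0.0706) cannot decide it, because the 2 libraries of a hairpin then mirror each other. With the numbers as a replicate block, 2 members passed for shDpep2.968 (2.31% of all genes), and 5 with the GC and length correction too (3.72%). The Dpep2 difference between hairpins of -0.14 ran between -0.30 and 0.048 with 1 library left out, and turned positive without shDpep2.968 replicate 2 (0.0105) and without shDpep2.759 replicate 1 (0.048). Log2 fold changes ran with GC content, described over genes, which are not independent. Spearman values were -0.259 averaged, -0.359 with shDpep2.968, -0.0887 with shDpep2.759 and -0.286 between the hairpins. Median GC was 48.01% for the tested members and 50.07% for all tested genes. With the GC and length correction, 19 members passed averaged (16.3% of all genes) and 20 with shDpep2.759 (13%). That correction covered 44 of the 49 tested members. Depth limits the members with few counts.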
